A study of Homo sapiens with 12 samples.

Results

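Interferon-stimulated genes outside the OAS family are described here in CAOV3 cells. The set held 42 genes, taken by symbol from the 19677 genes in the count tables, with RIGI listed under its older symbol DDX58. Of these, 30 had a mean of at least 1 CPM (counts scaled by TMM to the size of each library) over the 12 libraries and are described in full, and 12 were lower. The members closest to that line were PSMB9 at 1.01 CPM and UBE2L6 at 1.06 CPM above it, and IFI6 at 0.677 CPM under it.

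CAOV3 is a human cell line labelled as epithelial high grade serous, of wild-type genotype, grown in DMEM medium with fetal bovine serum. RNA was sequenced from 4 groups of 3 libraries: a control group given the solvent DMSO, a group given 10% ovarian cancer ascites with DMSO, a group given 200 uM bezafibrate, and a combination group given both agents. Ascites is abdominal fluid, which often builds up in ovarian cancer. Bezafibrate belongs to the fibrates, lipid-lowering drugs that activate PPAR nuclear receptors. Treatment lasted 16 hours in the 3 treated groups, and no time is given for the control. DMSO is named for the control and ascites groups only, so the drug and any difference in solvent cannot be told apart. The labels name neither the source of the ascites nor separate cultures, so the p-values measure only the spread between these libraries, which may be technical.

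Interferons are secreted proteins that signal through JAK kinases to STAT transcription factors. Type I and type III interferons act through a complex, with STAT2 and IRF9 among its parts, that binds the interferon-stimulated response element (ISRE). Interferon gamma acts through the gamma-activated site (GAS), and it also raises IRF1, a transcription factor that itself binds ISRE-type sequences. The genes switched on in this way degrade or sense viral RNA, block virus entry, attach the ubiquitin-like protein ISG15 to other proteins, or prepare peptides for display on MHC class I. In epithelial tumour cells many of them are also kept at a low level without added interferon.

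Promoter sequences are shown for 6 members, chosen to set 4 genes that rose with bezafibrate beside IFIT1 and IFIT5, 2 members of a family that did not rise. Each line gives the 150 bases before the RefSeq start site (build GRCh38.p14). Capitals mark a GAS match (TTCNNNGAA) in IRF1 and ISRE matches (GAAA, any 2 bases, GAAA, on either strand) in the other 5. PARP14 also held a GAS match, 40 bases before the start, which is left in lower case.
IRF1 (chr5:132490774-132490923, minus strand): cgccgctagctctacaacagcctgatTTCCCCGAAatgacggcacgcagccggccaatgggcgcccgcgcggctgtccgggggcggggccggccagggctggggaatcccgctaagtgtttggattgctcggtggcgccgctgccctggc
PARP14 (chr3:122680689-122680838, plus strand): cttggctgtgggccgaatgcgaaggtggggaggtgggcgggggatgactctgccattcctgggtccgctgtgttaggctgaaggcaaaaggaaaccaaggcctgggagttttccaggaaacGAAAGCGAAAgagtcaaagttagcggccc
TAP1 (chr6:32853705-32853854, minus strand): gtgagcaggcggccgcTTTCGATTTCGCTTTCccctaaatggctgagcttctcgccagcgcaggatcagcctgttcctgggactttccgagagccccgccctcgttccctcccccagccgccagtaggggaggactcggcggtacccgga
ISG15 (chr1:1013347-1013496, plus strand): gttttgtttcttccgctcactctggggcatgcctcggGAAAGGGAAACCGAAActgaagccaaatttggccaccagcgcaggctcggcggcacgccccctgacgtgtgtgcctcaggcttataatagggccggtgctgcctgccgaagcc
IFIT1 (chr10:89392473-89392622, plus strand): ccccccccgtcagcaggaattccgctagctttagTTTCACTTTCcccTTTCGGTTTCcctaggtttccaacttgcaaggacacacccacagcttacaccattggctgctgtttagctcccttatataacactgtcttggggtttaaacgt
IFIT5 (chr10:89414418-89414567, plus strand): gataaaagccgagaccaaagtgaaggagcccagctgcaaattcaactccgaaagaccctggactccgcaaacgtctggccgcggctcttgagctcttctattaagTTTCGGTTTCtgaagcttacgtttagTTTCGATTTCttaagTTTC
The TAP1 and ISG15 promoters each carried 2 overlapping ISRE matches, IFIT1 carried 2 separate ones, and the third match of IFIT5 ran past the end of the printed stretch. Only windows that held the marked motif were printed, so its presence in these genes was fixed by the choice. The other RefSeq start of TAP1 had 0 ISRE matches.

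Over the window from 250 bases before to 50 after the start, an ISRE match was present in 24 of the 37 members with a RefSeq entry (64.9%), beside 4.38% of 27305 genes. It was present in 7 of the 11 members that rose with bezafibrate over both media, in 9 of 15 members at 1 CPM or more that did not rise, and in 8 of 11 members under 1 CPM. A GAS match was present in 10 of 37 members (27%), beside 9.38% of all genes: 5 of the 11 that rose, 3 of the 15 that did not and 2 of the 11 low members. A gene with more than 1 RefSeq start was counted if the window of any start held a match. The ISRE matches of PARP9, PSMB8 and RSAD2 lay only at their second start. So did the GAS matches of TAP1 and PSMB8, which are among the members that rose. The letters AGGNCA repeated with 1 base between, a strict form of the repeat that PPAR and RXR bind, were found on either strand in 0 of the 37 and in 0.377% of all genes. These are matches of letters only, and no binding was measured.

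Library totals lay between 11831093 and 18762759 counts, and 12470 genes passed the filter on low counts, 31 members among them. Libraries with and without bezafibrate separated on the main axis of variance (37.0%). The coefficient of variation between replicates beyond counting noise, fitted as 1 value over all genes, was 3.06%. It leaves out the counting noise in CPM values, which is larger for members with few counts. On the next axis (9.88%), combination replicate 3 stood apart at -22.4, the others lying between -4.37 and 9.84. Keratins KRT8, KRT18 and KRT7 were abundant (means of 3033, 1797 and 967.9 CPM). The serous markers PAX8, WT1 and MUC16 had means of 0.676, 0.088 and 0.0598 CPM, and of these PAX8 alone passed the filter on low counts. EPCAM and CDH1, other epithelial markers, had means of 30.2 and 34.9 CPM. Part of this epithelial list moved with bezafibrate. CDH1 rose by 1.52 without and by 1.69 with ascites (edgeR adjusted p = 1.49e-19 and 2.33e-20). KRT7 rose by 0.55 and by 0.57 (edgeR adjusted p = 3.34e-17 and 1.75e-17). PAX8 rose by 1.48 without ascites (edgeR adjusted p = 0.0252) but was not called with it (0.66, edgeR adjusted p = 0.44). Counts of PAX8 were 9, 6 and 1 in control, 3, 4 and 13 with ascites, and 21, 19 and 15 with bezafibrate. PAX8 thus passed the filter on low counts through libraries with the drug, which favoured a rise. Of 10 leukocyte markers, 6 (PTPRC, CD3E, MS4A1, TYROBP, S100A8 and S100A9) had 0 counts in all 12 libraries, and the summed level of the list was 2.86 to 3.82 CPM in control, 2.15 to 3.83 in ascites, 2.96 to 4.70 in bezafibrate and 3.17 to 4.93 in combination libraries. Of 6 platelet and red cell genes, PPBP, PF4 and GP9 were at 0 throughout, and the sum was 0.543 to 1.41 CPM over all libraries. Of 4 fibroblast markers none was at 0 in all libraries, and their sum moved with the drug: 9.99 to 11.3 CPM in control, 10.5 to 11.5 in ascites, 6.35 to 6.80 in bezafibrate and 5.57 to 7.21 in combination libraries, DCN having a mean of 0.0196 CPM. The 3 mesothelial markers summed to 1.02 to 1.27, 0.783 to 1.09, 1.21 to 1.29 and 1.47 to 2.46 CPM in the same order. The part of these marker changes in the results was not tested.

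The comparison of bezafibrate with control asked what the drug changed without ascites, and that of the combination with ascites what it changed with ascites. IRF1 doubled in both, and TRIM25, PARP14, DTX3L, PSMB8 and TAP1 rose in both with smaller fitted values. Most of the other members did not pass the test, including IFIT1, IFIT2, IFIT3, IRF7 and USP18, while ISG15 was called with ascites. Without ascites, 7 of the 30 members rose and 0 fell (edgeR quasi-likelihood test, Benjamini-Hochberg adjusted p under 0.05 over all genes), where 10.1% of all genes tested rose and 7.55% fell. With ascites, 9 of 30 rose and 1 fell, where 10.5% of all genes rose and 7.29% fell. The median log2 fold change of the 30 members was 0.07 without and 0.12 with ascites, beside -0.0037 in each for all genes. PSMB9 and UBE2L6 had under 1 CPM on average in both groups without the drug and passed the 1 CPM line through the drug groups, so they had to be higher there; of the other 28 members, 7 rose in each comparison. Without combination replicate 3, the count with ascites was 8, 7 of them higher, and the share of all genes in that fit is not given.

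Both comparisons use different libraries. The 6 members called in both were IRF1, TRIM25, PARP14, DTX3L, PSMB8 and TAP1, all higher; they were 85.7% of the 7 called without ascites and 60% of the 10 called with it. Among all genes, 1577 were called in both, 71.7% and 71.2% of the respective lists. Over the 30 members, the fitted change was positive in both comparisons for 18, negative in both for 7 and of mixed sign for 5. The 18 include PSMB9 and UBE2L6, and the same split over all genes was not counted.

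**Figure D1:**
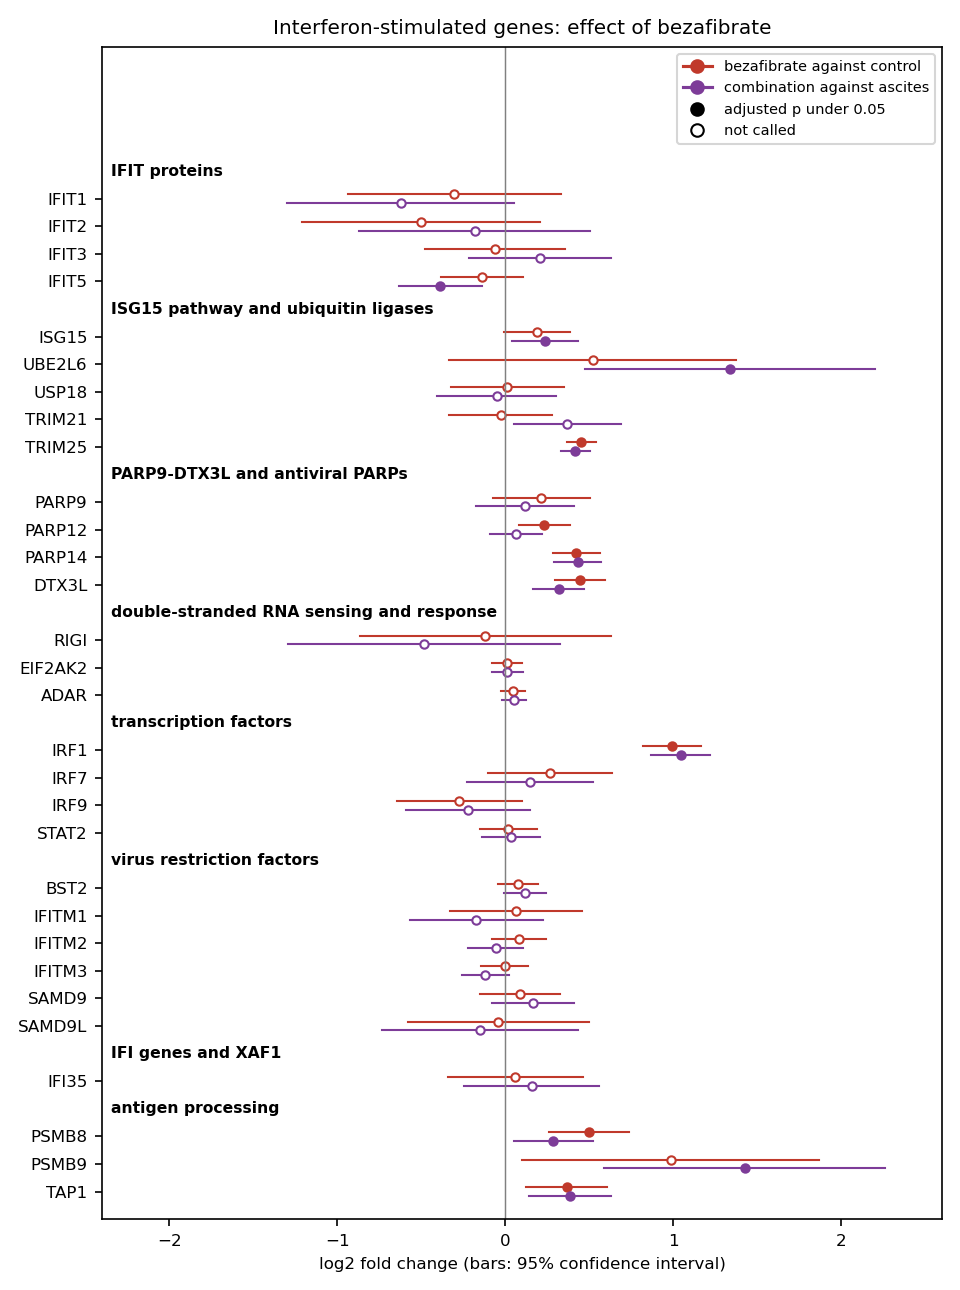
Log2 fold change of each member at 1 CPM or more on average, grouped by role, for bezafibrate against control and for the combination against ascites. Points are fitted values, bars 95% confidence intervals, and filled points have an adjusted p under 0.05; IRF1 lies near 1 in both comparisons, and most other members lie close to 0.

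Among the transcription factors, IRF1 (ENSG00000125347.15, chromosome 5, 132481609 to 132490773) was the member with the lowest adjusted p in both drug comparisons. Its level was 19.4, 17.3 and 21.3 CPM in the control libraries, 17, 19.5 and 19.4 with ascites, 39.5, 38.8 and 36.6 with bezafibrate, and 38.0, 42 and 35.4 with both. All 6 libraries with the drug lay above all 6 without it. The share of all genes that separate in this way was not counted, here or for the other members. The log2 fold change was 0.99 (SE 0.0747, edgeR adjusted p = 2.24e-13) without ascites and 1.04 (SE 0.0769, edgeR adjusted p = 1.24e-13) with it, a fold of 1.99 and 2.06. In these bulk samples, a change in the share of cells with IRF1 RNA and a change in RNA per cell cannot be told apart, here as for every member. Exons of IRF1 overlap an unnamed gene on the other strand, ENSG00000283782, over 469 bases, and the strand setting of the counting is not given in the sources used here. With that gene's reads added to IRF1, the log2 fold change was 1.12 (edgeR adjusted p = 0.00253) and 0.99 (edgeR adjusted p = 0.00504). A larger stretch of 1716 exon bases is shared with C5orf56, also on the other strand. C5orf56 is not among the counted genes, so its reads could not be added and their part was not tested.

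STAT2 and IRF9, parts of the complex that binds the ISRE, were called in neither comparison. STAT2 measured 21.8 ± 0.659 CPM in control, 23.2 ± 1.72 with ascites, 22.0 ± 0.939 with bezafibrate and 23.7 ± 1.43 with both (SD, n = 3 each). Its log2 fold change with bezafibrate was 0.02 (95% confidence interval -0.15 to 0.19) without ascites and 0.03 (-0.14 to 0.21) with it. IRF9, the DNA-binding subunit, had group means of 5.63, 6.12, 4.67 and 5.34 CPM in the same order, with a fitted log2 change of -0.27 (edgeR adjusted p = 0.282) and -0.22 (edgeR adjusted p = 0.403); its exons share 1838 bases with another gene on its strand, so its counts are uncertain. IRF7, which amplifies interferon production, had means of 4.55, 4.92, 5.50 and 5.40 CPM and a fitted log2 change of 0.27 (edgeR adjusted p = 0.296) and 0.14 (edgeR adjusted p = 0.626). Without ascites the 95% confidence interval reached down to -0.65 for IRF9 and up to 0.64 for IRF7. The averaged drug effect on IRF9 was called only without combination replicate 2 (-0.32, edgeR adjusted p = 0.0379; -0.25, edgeR adjusted p = 0.103, with all libraries).

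TRIM25, the ubiquitin ligase that activates the RNA sensor RIG-I, rose in both comparisons. Its level (ENSG00000121060.19, chromosome 17, 56887909 to 56914049) was 179.1, 169.0 and 164.8 CPM in control, 181.8, 169.3 and 183.8 with ascites, 233.8, 239.2 and 229.5 with bezafibrate, and 228.7, 243.4 and 243.3 with both. No library with the drug overlapped one without it. The log2 fold change was 0.45 (SE 0.0374, edgeR adjusted p = 2.46e-12) without ascites and 0.42 (SE 0.0377, edgeR adjusted p = 2.85e-11) with it. Exons of TRIM25 share 538 bases with AC015912.1 on the other strand, which is not among the counted genes. They also share 132 bases with C17orf67 and 80 with DGKE, and the part of reads from these genes was not tested. TRIM21, a related ligase that also binds antibody, had 6.75, 7.64 and 5.71 CPM in control, 6.41, 5.78 and 5.05 with ascites, 6.57, 6.78 and 6.39 with bezafibrate, and 7.62, 6.79 and 7.77 with both. The ascites libraries were the lowest on average and the combination libraries the highest, and TRIM21 did not pass the test with ascites (log2 fold change 0.37, SE 0.138, edgeR adjusted p = 0.0594; 0.0457 without ascites replicate 1).

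In the ISG15 pathway, which tags proteins much as ubiquitin does, calls in a single drug comparison came with ascites. ISG15, the ubiquitin-like modifier, had 17.2, 15.7 and 16.3 CPM in control, 16.6, 17.8 and 17 with ascites, 16.8, 18.9 and 20.5 with bezafibrate, and 21.1, 20.5 and 18.7 with both. Bezafibrate libraries overlapped the control, whereas the combination libraries lay above those with ascites alone. Its log2 fold change was 0.19 (edgeR adjusted p = 0.134, and 0.0446 without bezafibrate replicate 1) without ascites and 0.24 (SE 0.0852, edgeR adjusted p = 0.0482) with it; the latter call did not hold in 12 of 14 alternatives, including DESeq2 (adjusted p = 0.153) and the omission of any ascites library or of combination replicate 1 or 2 (edgeR adjusted p from 0.0631 to 0.176). Averaged over media with and without ascites, ISG15 rose by 0.21 (SE 0.06, edgeR adjusted p = 0.00618) and was called in all 19 alternatives. UBE2L6, the conjugating enzyme for ISG15, had 1.02, 0.955 and 0.397 CPM in control, 0.712, 0.703 and 0.539 with ascites, 0.904, 1.67 and 0.824 with bezafibrate, and 1.58, 1.19 and 2.20 with both. Its 185 counts over 12 libraries gave a fitted log2 change of 0.52 (edgeR adjusted p = 0.399) without ascites and 1.34 (SE 0.374, edgeR adjusted p = 0.00885) with it, and the call ended without ascites replicate 3 (edgeR adjusted p = 0.0502) or combination replicate 3 (edgeR adjusted p = 0.0508). USP18, which removes ISG15 and dampens the type I receptor, had group means of 5.83, 5.65, 5.91 and 5.46 CPM, with a fitted log2 change of 0.01 (95% confidence interval -0.33 to 0.35) and -0.05 (-0.41 to 0.30).

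Among the PARP9-DTX3L group, PARP14, an ADP-ribosyltransferase induced by interferon, had 34.6, 31.7 and 30.1 CPM in control, 32.5, 35.1 and 31.5 with ascites, 43.3, 43.9 and 42.4 with bezafibrate, and 43.9, 45.3 and 44.2 with both. All libraries with the drug lay above all without it, and the log2 fold change was 0.42 (SE 0.0596, edgeR adjusted p = 6.35e-07) without ascites and 0.43 (SE 0.0606, edgeR adjusted p = 6.7e-07) with it. DTX3L, a ubiquitin ligase that works as a pair with PARP9, had 26.5, 27.4 and 28.4 CPM in control, 29.9, 26.8 and 28.5 with ascites, 37.9, 37.7 and 35.9 with bezafibrate, and 32.7, 36.9 and 37.3 with both. DTX3L likewise showed no overlap between libraries with and without the drug, with a fitted log2 change of 0.44 (SE 0.0645, edgeR adjusted p = 1.3e-06) and 0.32 (SE 0.0663, edgeR adjusted p = 0.00041). PARP9 starts head to head with DTX3L and shares 217 exon bases with it; its group means were 8.18, 8.63, 9.56 and 9.32 CPM, and its log2 fold change was 0.21 (edgeR adjusted p = 0.277) and 0.12 (edgeR adjusted p = 0.61). With the reads of both genes summed, the pair rose by 0.39 (edgeR adjusted p = 1.29e-06) and 0.27 (edgeR adjusted p = 0.000649).

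PARP12, which binds viral RNA through zinc fingers, had 31.3, 28.1 and 31.9 CPM in control, 31.8, 30.9 and 33.5 with ascites, 33.7, 35.9 and 37.9 with bezafibrate, and 35.7, 32.9 and 31.7 with both. The bezafibrate libraries lay above the control libraries, and the combination libraries overlapped those with ascites. PARP12 rose by 0.23 (SE 0.0653, edgeR adjusted p = 0.00889) without ascites and had a fitted log2 change of 0.07 (edgeR adjusted p = 0.586) with it, and the interaction test of that difference gave -0.17 (edgeR adjusted p = 0.999). The call without ascites ended when control replicate 2 (edgeR adjusted p = 0.0955) or bezafibrate replicate 3 (edgeR adjusted p = 0.0596) was left out.

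**Figure D2:**
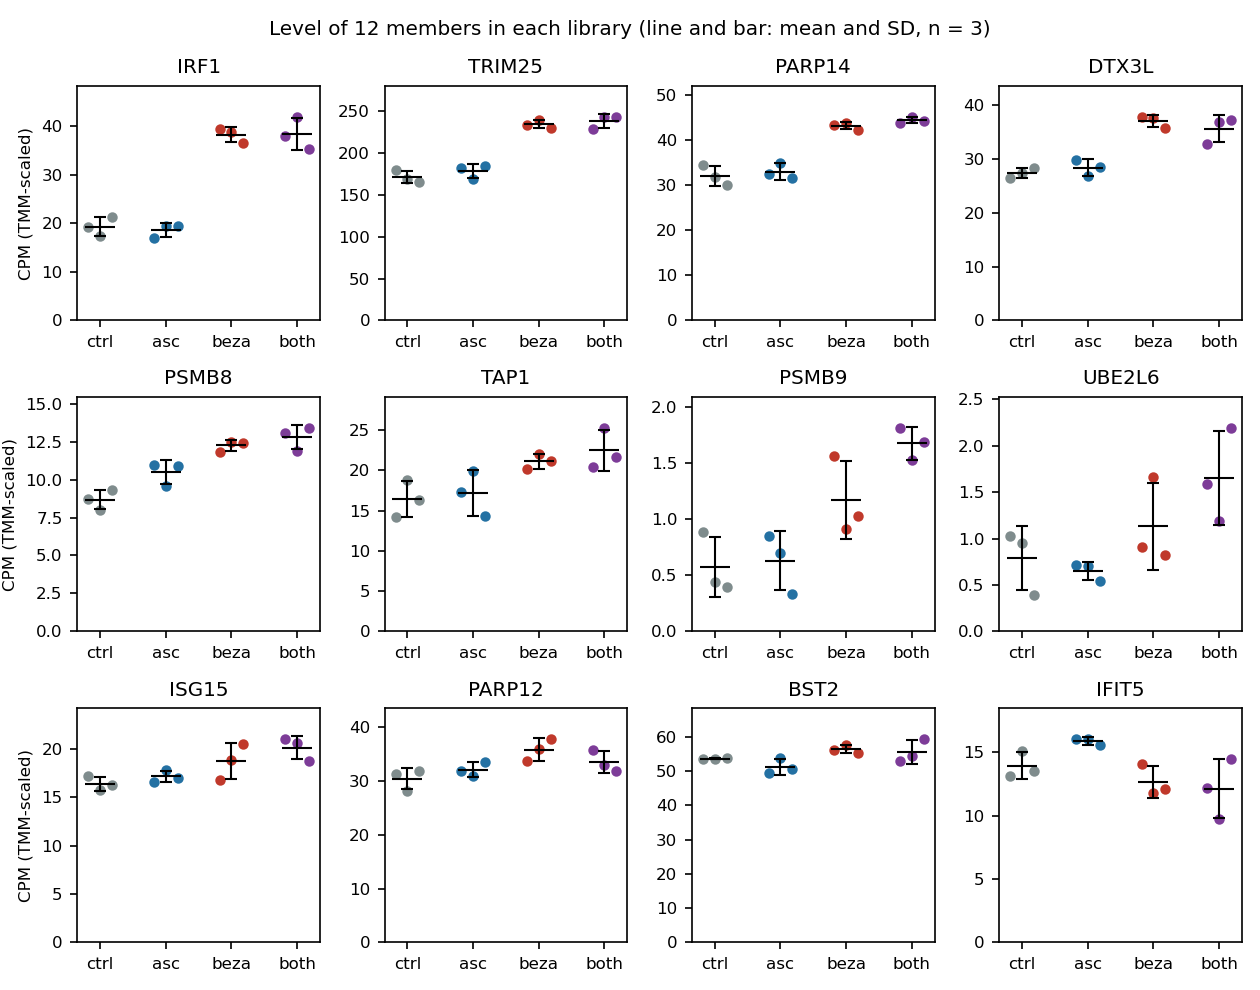
CPM of 12 members in each of the control (ctrl), ascites (asc), bezafibrate (beza) and combination (both) libraries. Each was called for bezafibrate against control or the combination against ascites, except BST2, called only in the averaged drug effect. Points are libraries, the line and bar the mean and SD of 3. IRF1, TRIM25, PARP14, DTX3L, PSMB8, TAP1 and PSMB9 do not overlap between libraries with and without the drug, and IFIT5 is highest with ascites alone. The share of all genes without such overlap was not counted, and PSMB9 passed the 1 CPM line through the drug groups.

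The antigen-processing members lie next to each other in the MHC region of chromosome 6, with PSMB8 at 32840717 to 32844679, TAP1 at 32845209 to 32853704 and PSMB9 at 32854192 to 32859851. PSMB8, a catalytic subunit of the immunoproteasome, had 8.73, 8.01 and 9.28 CPM in control, 11, 9.60 and 10.9 with ascites, 11.8, 12.5 and 12.4 with bezafibrate, and 13.1, 11.9 and 13.4 with both. The control libraries were the lowest, the ascites libraries lay between, and the libraries with the drug were the highest, with no overlap. The log2 fold change with bezafibrate was 0.50 (SE 0.104, edgeR adjusted p = 0.00038) without ascites and 0.29 (SE 0.102, edgeR adjusted p = 0.0479) with it, and the latter call did not hold in 11 of 14 alternatives, including the omission of any ascites library or of combination replicate 1 or 3 (edgeR adjusted p from 0.0684 to 0.203). Ascites alone gave 0.28 for PSMB8 (SE 0.109), which did not pass the test (edgeR adjusted p = 0.742). PSMB8 and PSMB9 share 139 exon bases, and their summed reads rose by 0.54 (edgeR adjusted p = 7.51e-05) without and by 0.38 (edgeR adjusted p = 0.0043) with ascites. Exons of PSMB8, TAP1 and PSMB9 also share 618, 456 and 174 bases with the non-coding gene PSMB8-AS1, which lies on the strand of PSMB9. PSMB8-AS1 is not among the counted genes, so the part of its reads in these 3 rises was not tested.

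TAP1, a subunit of the transporter that carries peptides into the endoplasmic reticulum, had 14.2, 18.8 and 16.3 CPM in control, 17.3, 19.9 and 14.3 with ascites, 20.1, 22.1 and 21.2 with bezafibrate, and 20.5, 25.3 and 21.6 with both. The libraries with the drug did not overlap those without it, by narrow gaps. TAP1 rose by 0.37 (SE 0.105, edgeR adjusted p = 0.0141) without ascites and by 0.39 (SE 0.106, edgeR adjusted p = 0.0105) with it. The first call ended without control replicate 1 (adjusted p = 0.116), control replicate 3 (0.0599) or bezafibrate replicate 2 (0.0761), and the second without ascites replicate 3 (0.0952) or combination replicate 2 (0.0651), all by edgeR.

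PSMB9, another immunoproteasome subunit, was measured by 5 to 31 counts per library: 0.886, 0.441 and 0.397 CPM in control, 0.854, 0.703 and 0.337 with ascites, 1.57, 0.915 and 1.03 with bezafibrate, and 1.82, 1.53 and 1.69 with both. All libraries with the drug lay above all without it, which was favoured because PSMB9 passed the 1 CPM line through the drug groups. The log2 fold change was 0.99 (SE 0.384) without ascites, which missed the threshold (edgeR adjusted p = 0.0733; 0.0308 without control replicate 1), and 1.43 (SE 0.363, edgeR adjusted p = 0.00379) with it. The difference between these values was not called (interaction 0.44, edgeR adjusted p = 0.999).

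The IFIT proteins bind foreign RNA and are among the genes most strongly induced by interferon in many cells. IFIT5 was called lower with all libraries and the filter in place: 13.2, 15.1 and 13.5 CPM in control, 16.0, 16.1 and 15.6 with ascites, 14.1, 11.8 and 12.1 with bezafibrate, and 12.2, 9.77 and 14.4 with both. The ascites libraries were the highest, and bezafibrate libraries overlapped the control. Its log2 fold change was -0.14 (edgeR adjusted p = 0.446) without ascites and -0.39 (SE 0.107, edgeR adjusted p = 0.00827) with it, and the call ended without combination replicate 2 (edgeR adjusted p = 0.0945).

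IFIT1 had 1.36, 1.54 and 2.06 CPM in control, 1.42, 1.87 and 1.82 with ascites, 1.33, 1.18 and 1.51 with bezafibrate, and 1.23, 0.849 and 1.18 with both. The combination libraries lay under those with ascites without overlap, but the change of -0.62 (SE 0.293) did not pass the test (edgeR adjusted p = 0.154). IFIT2 had 1.36, 1.84 and 1.27 CPM in control, 2.14, 1.33 and 1.21 with ascites, 0.965, 0.861 and 1.37 with bezafibrate, and 1.52, 1.27 and 1.27 with both. Its groups overlapped (log2 fold change -0.50, edgeR adjusted p = 0.304, without ascites, and -0.18, edgeR adjusted p = 0.756, with it). Exons of IFIT2 share 65 bases with LIPA on the other strand and 356 with the uncounted AL353751.1. LIPA had 14862 counts over the 12 libraries, beside 234 for IFIT2, so the counts of IFIT2 are uncertain. IFIT3 had group means of 3.47, 3.43, 3.31 and 3.95 CPM, with a fitted log2 change of -0.06 (95% confidence interval -0.48 to 0.36) and 0.21 (-0.21 to 0.63).

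Double-stranded RNA sensors and effectors held none of the members that rose. EIF2AK2, the kinase PKR that halts translation on binding double-stranded RNA, measured 147.3 ± 3.51 CPM in control, 145.8 ± 5.43 with ascites, 148.1 ± 6.20 with bezafibrate and 147.3 ± 3.95 with both (SD, n = 3 each). Its log2 fold change was 0.01 in each drug comparison, with a 95% confidence interval of -0.08 to 0.10 in each. ADAR, the editor that converts adenosine to inosine in such RNA, measured 245.4 ± 2.97, 245.2 ± 2.38, 252.9 ± 2.90 and 254.7 ± 6.89 CPM, with a fitted log2 change of 0.04 (-0.03 to 0.12) and 0.05 (-0.02 to 0.13). The averaged effect on ADAR was 0.05 (edgeR adjusted p = 0.101) and was called only without combination replicate 1 (0.06, edgeR adjusted p = 0.0382). For these abundant members the intervals are narrow enough to exclude a doubling such as that of IRF1. RIGI, the sensor of viral RNA ends, had 6.89, 6.98 and 7.85 CPM in control, 8.54, 5.15 and 7.74 with ascites, 6.21, 7.59 and 6.05 with bezafibrate, and 2.40, 6.62 and 7.26 with both. Combination replicate 1 stood far under its group, and the change with ascites was not called (log2 fold change -0.48, SE 0.351, edgeR adjusted p = 0.444).

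Among the virus restriction factors, BST2 (tetherin), which holds budding virus at the cell surface, had 53.5, 53.4 and 53.8 CPM in control, 49.3, 53.6 and 50.4 with ascites, 56.2, 57.5 and 55.4 with bezafibrate, and 52.8, 54.4 and 59.4 with both. It was called in neither drug comparison alone (log2 fold change 0.08, edgeR adjusted p = 0.374, and 0.12, edgeR adjusted p = 0.14). The IFITM proteins, which block virus fusion, are near-identical paralogs whose division of reads is uncertain. IFITM3 had means of 32.8, 36.1, 32.7 and 33.2 CPM in the 4 groups, IFITM2 had 22.3, 24.2, 23.5 and 23.1, and IFITM1 had 4.06, 4.62, 4.24 and 4.16; none passed the test with the drug. SAMD9 (11.7, 11.4, 12.4 and 12.9 CPM) and SAMD9L (2.50, 2.24, 2.40 and 2.05 CPM), which restrict poxviruses, and IFI35 (3.52, 3.69, 3.65 and 4.13 CPM) were not called either.

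Averaged over media with and without ascites, the drug effect has the spread of all 12 libraries behind it. There, 11 members rose and 1 fell by edgeR, where 15% of all genes rose and 13.2% fell. Without PSMB9 and UBE2L6, 9 of the other 28 members rose. The 11 were the 9 higher with ascites plus PARP12 (0.15, edgeR adjusted p = 0.0141) and BST2 (0.10, SE 0.0372, edgeR adjusted p = 0.0494), and the call of BST2 was lost in 17 of 19 alternatives. IFIT5 was the member that fell (-0.26, edgeR adjusted p = 0.00723). The combination set against the control gave 9 members higher and 0 lower, where 10.3% of all genes rose and 7.96% fell, or 7 of 28 higher without PSMB9 and UBE2L6; ISG15 (0.30, edgeR adjusted p = 0.0108), UBE2L6 (1.03, edgeR adjusted p = 0.0406) and PSMB9 (1.52, edgeR adjusted p = 0.00234) were among them. In that comparison UBE2L6 lost its call in 5 of 14 alternatives: with DESeq2 (adjusted p = 0.116) and without control replicate 2 or 3 or combination replicate 1 or 3 (edgeR adjusted p from 0.06 to 0.225). ISG15 lost it without control replicate 2 (edgeR adjusted p = 0.0565) or combination replicate 1 (edgeR adjusted p = 0.0649), and IFIT5 was called lower without combination replicate 3 (-0.32, edgeR adjusted p = 0.0366). The averaged calls ended for UBE2L6 without bezafibrate replicate 2 (edgeR adjusted p = 0.0588) and for PARP12 without control replicate 2 (0.0605) or combination replicate 1 (0.0636).

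The comparison of ascites with control asked whether the fluid moved these genes. By edgeR 0 of the 30 members were called, where 0.0882% of all genes were called, and DESeq2 also called 0. An unadjusted edgeR p under 0.05 was found for 2 members, beside 749 of 12470 genes, so 2 of 30 is near that background. Those 2 were PSMB8 and IFITM3. IFITM3 measured 32.8 ± 1.75 CPM in control and 36.1 ± 1.14 with ascites (SD, n = 3 each), without overlap, and its log2 fold change was 0.14 (SE 0.0609, edgeR adjusted p = 0.79). The median change of the 30 members was 0.06, beside -0.0018 for all genes. With bezafibrate present, ascites again gave 0 calls (0.128% of all genes, 0.0401% higher and 0.0882% lower), and DESeq2 called 0. An unadjusted edgeR p under 0.05 was found for 0 members, beside 597 of 12470 genes. Averaged over cells with and without the drug, ascites gave 0 calls by edgeR and by DESeq2 (0.281% of all genes by edgeR, 0.0481% higher and 0.233% lower). There, 1 member had an unadjusted edgeR p under 0.05, beside 869 of 12470 genes. The 95% confidence interval lay within 0.5 of zero on the log2 scale for 20 of the 30 members without the drug and for 21 with it.

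**Figure D3:**
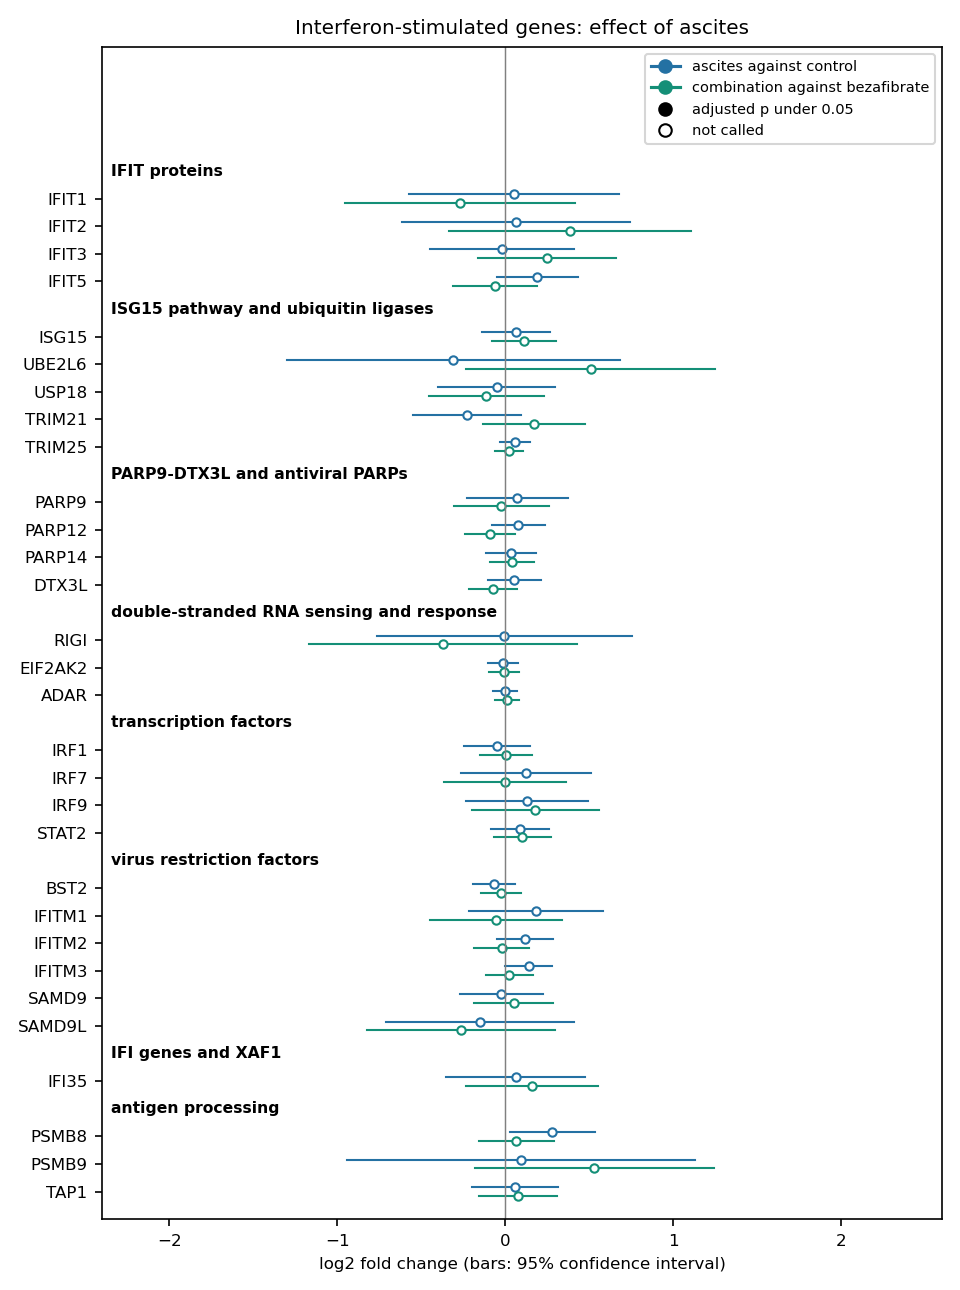
Log2 fold change with ascites for each member at 1 CPM or more on average, for ascites against control and for the combination against bezafibrate. Points are fitted values and bars 95% confidence intervals; all points are open, because 0 members were called in either comparison.

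The interaction asked whether the response to the drug differed with ascites. No member was called (0 by edgeR and by DESeq2, where 0% of all genes were called by edgeR). Only 1 member had an unadjusted edgeR p under 0.05, beside 445 of 12470 genes. UBE2L6 had the largest fitted difference at 0.82 (edgeR adjusted p = 0.999). Members called in 1 drug comparison and not in the other, such as PSMB9, UBE2L6, ISG15, PARP12 and IFIT5, were therefore not shown to differ between media.

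The 12 members under 1 CPM include genes often used to score an interferon response. IFI6, a mitochondrial protein, had 115 counts over all 12 libraries and was the one of them that was tested; it was called in no comparison. HERC5, the ligase for ISG15, had 76, IFIH1, the RNA sensor MDA5, had 74, IFI44L had 60, HERC6 had 52, and MX1, a GTPase that traps viral ribonucleoprotein, had 47. IFI44 had 18 counts, IFI27 and CMPK2 had 10 each, MX2 had 8, and RSAD2 (viperin) and XAF1 had 2 each. MX2 had 0 counts in each of the 6 libraries without the drug and at most 3 in a library with it, which is at the limit that a count of 0 allows (3 counts, 0.161 to 0.255 CPM by library, counting error only). Apart from IFI6, these genes did not pass the filter on low counts and were not tested.

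**Figure D4:**
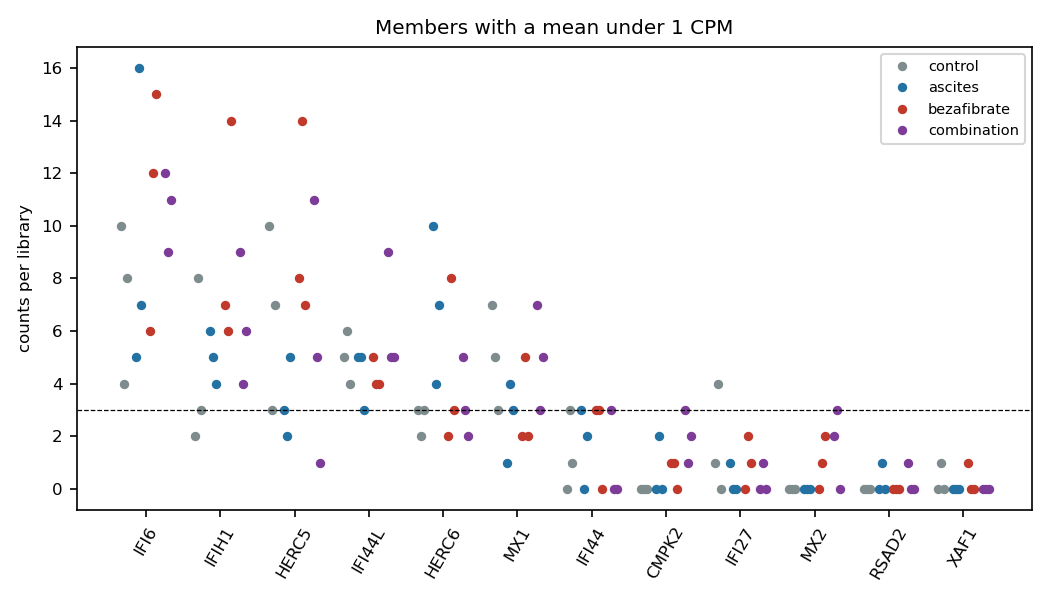
Counts per library of the 12 members under 1 CPM, coloured by group; the dashed line marks 3 counts, the limit that a count of 0 allows. RSAD2 and XAF1 reach at most 1 count in any library, and IFI6 is the highest at up to 16.

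Levels can be set between genes only per length. Per kilobase of merged exon in control cells (GENCODE 29), BST2 was the highest at 47.9 CPM per kilobase, followed by ADAR at 25.3, IFITM3 at 24.3, TRIM25 at 18, ISG15 at 17.4, IFITM2 at 14.4 and EIF2AK2 at 13.7. IRF1 stood at 2.48, TAP1 at 3.42, PSMB8 at 2.89 and PSMB9 at 0.187 CPM per kilobase. The merged length takes in every annotated exon (7799 bases for IRF1, 1119 for BST2) and is not that of 1 transcript. The order therefore depends on the annotation as well as on the RNA level.

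Beyond the members, 82 other genes of the interferon system were read, and 62 of them were tested. Lists of these genes, here and below, were chosen with earlier results of these data known. Their counts of calls are thus a description and no independent support. Of 9 interferon genes, 7 had 0 counts in all 12 libraries, IFNB1 and IFNG among them, while IFNA1 had 7 counts in total and IFNE, an epithelial type I interferon, had 158. Of 11 receptor, JAK and STAT genes, bezafibrate raised 1 without ascites, IFNGR2, a chain of the interferon gamma receptor, by 0.39 (edgeR adjusted p = 2.81e-07). With ascites it raised IFNGR2 by 0.36 (edgeR adjusted p = 1.69e-06) and the kinase JAK1 by 0.13 (edgeR adjusted p = 0.0449). These counts, and the single calls among sensors and regulators, are to be read beside the 10.1% and 10.5% of all genes that rose and the 7.55% and 7.29% that fell, and 1 of 11 is near that background. Of 7 sensors and adaptors tested, the kinase TBK1 rose by 0.16 with ascites (edgeR adjusted p = 0.0371), and of 4 negative regulators PIAS1 fell by 0.19 without it (edgeR adjusted p = 0.00709).

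Antigen presentation outside the members had 13 genes tested, of which 7 rose and 0 fell without ascites and 9 rose and 0 fell with it, where 10.1% and 10.5% of all genes rose. PSMB10, the immunoproteasome subunit that works beside PSMB8 and PSMB9, rose by 0.50 (edgeR adjusted p = 1.02e-05) and by 0.53 (edgeR adjusted p = 4.26e-06). The proteasome activators PSME1 (0.27 and 0.34) and PSME2 (0.17 and 0.31), the peptide trimmers ERAP1 (0.48 and 0.49) and ERAP2 (0.87 and 0.81), the loading chaperone TAPBP (0.23 and 0.26) and HLA-C (0.20 and 0.22) also rose in both, while B2M (0.14) and HLA-E (0.17) rose with ascites. HLA genes are near-identical in part, so their counts are uncertain.

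Further interferon-stimulated genes had 22 tested, of which 8 rose without and 9 with ascites, and 0 fell in either, where 10.1% and 10.5% of all genes rose. DDX60 (1.63 and 1.59), DDX60L (1.22 and 1.3), GBP2 (0.99 and 1.01), GBP3 (0.92 and 1.03), HELZ2 (0.26 and 0.23) and LGALS3BP (0.19 and 0.11) rose in both. PML (0.25) and SP100 (0.19) rose without ascites, and NMI (1.47), PARP10 (0.83) and TRIM14 (0.15) rose with it. For reference, the RNA-sensing synthetases OAS1, OAS3 and OASL rose by 2.38, 1.05 and 1.19 without ascites and by 2.42, 1.16 and 1.22 with it. The plot of interferon pathway genes by role sets all of these on the same axis.

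**Figure D5:**
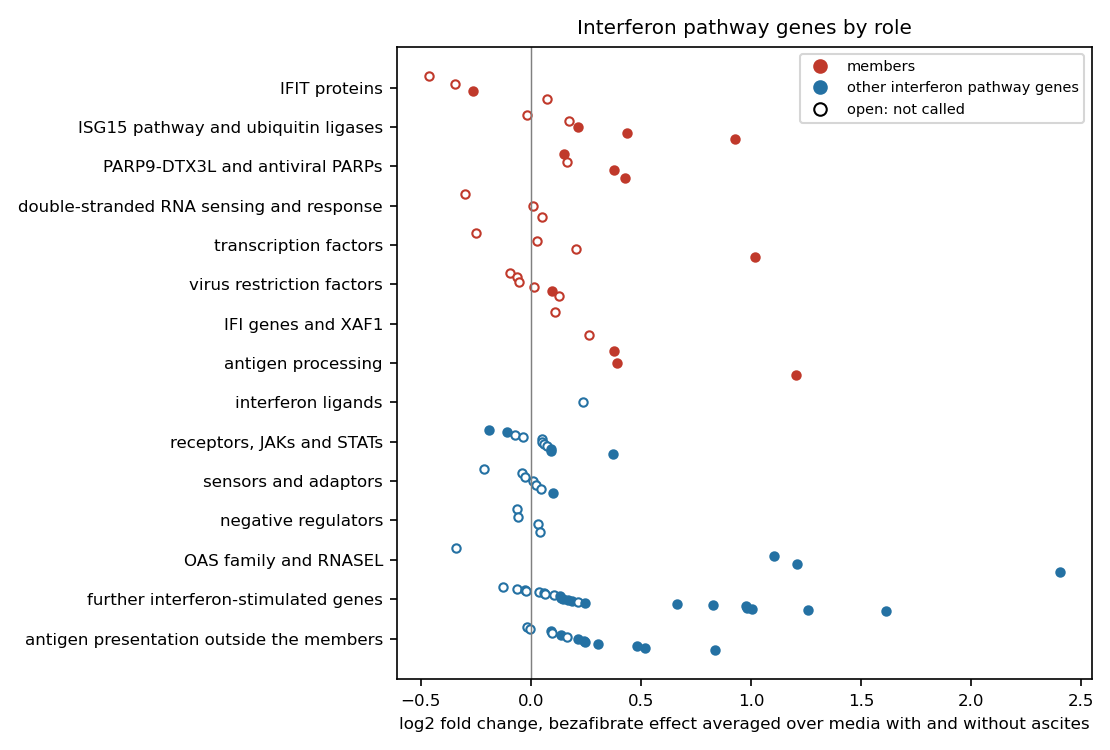
Log2 fold change of each tested gene of the interferon system for bezafibrate averaged over media with and without ascites, by role; the 31 tested members and the other genes are coloured apart, and open points were not called. OAS1 lies farthest to the right at 2.40, and the IFIT proteins and the double-stranded RNA group lie around 0 or under it.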

How the data were processed

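RNA-seq of CAOV3 cells was analysed in 12 libraries, grouped by the treatment label, 3 libraries per group. The deposited values are whole-number counts per gene, 1 table per library, with no scaling by the authors recorded in the files. Trimmomatic 0.39, STAR 2.7.9a, RSEM 1.3.3, DESeq2 1.28.1 and build GRCh38 are named per the submitters' processing notes. Which step made the counts, the annotation and the strand setting are not given in the sources used here, so reads shared by overlapping genes may be divided in either way.

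Genes were filtered with filterByExpr (minimum count 10, minimum total 15) in edgeR 4.0.16 under R 4.3.3, scaled by TMM and fitted over all 12 libraries with 1 mean per group (glmQLFit, robust; glmQLFTest; 8 residual degrees of freedom). Adjusted p-values are Benjamini-Hochberg values over the 12470 genes tested, and genes under 0.05 were called. CPM values are TMM-scaled. The SE is the absolute log2 fold change over the root of the F statistic, and 95% confidence intervals use a t distribution with the residual degrees of freedom. The fit was tested on simulated data. Replicates differed by more than sampling noise (chi-square per degree of freedom 1.44 to 4.45), so each counted once.

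The members and lists were chosen with earlier results of these data known. Values in every library are given for members called in any comparison and for those among the 4 largest changes in a comparison; other pathway genes are named where called. Alternatives were RLE, upper-quartile and total-count scaling, DESeq2 1.42.0, no filter, a filter at 1 CPM, only the groups compared, the replicate block, and each library left out. Summing overlapping genes was chosen after seeing the data. Promoters came from RefSeq (GRCh38.p14) and matched 37 of the 42 members.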

Additional observations from a re-analysis of the deposited data

How the results depend on the processing

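Of 38 called results of single members, 26 stayed called in every alternative planned, among them IRF1, TRIM25, PARP14 and DTX3L in both drug comparisons. With each library left out in turn, the number of members called ranged from 6 to 8 for bezafibrate against control (7 with all libraries), from 6 to 9 for the combination against ascites (10), from 7 to 9 for the combination against control (9) and from 10 to 12 for the averaged drug effect (12), and was 0 throughout for both ascites comparisons, the averaged ascites effect and the interaction. The 6 for the combination against ascites came without ascites replicate 3. DESeq2 called 7, 8, 8 and 11 members in the 4 drug comparisons, in that order. With all libraries, edgeR called 17.6%, 17.8%, 18.2% and 28.3% of all genes in these comparisons. Shares of all genes in the alternatives are not set beside these counts, so the counts do not compare members with other genes.

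Same-numbered libraries did not deviate together: 0 of 18 pairs had a correlation over 0.1 (-0.135 to 0.0613), so the numbers were not taken to pair the samples. With the replicate block, 7, 9, 9 and 11 members were called in the same order, again without the share of all genes beside them.

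Over all genes, leaving out the filter raised calls from 11 to 59 for ascites against control, from 16 to 52 for the combination against bezafibrate, from 35 to 113 for the averaged ascites effect and from 0 to 36 for the interaction. Fitting only the groups compared gave 33 and 7 for the first 2. DESeq2 and the block each called 1 gene for the interaction. With 1 library left out, the counts were 3 to 5 for ascites against control, and at their extremes 9 and 28 for the combination against bezafibrate, 21 and 118 for the averaged ascites effect (118 without combination replicate 3) and 0 and 3 for the interaction. Without the filter RIGI was called lower for the combination against ascites (-0.49, edgeR adjusted p = 0.0113) and against control (-0.49, edgeR adjusted p = 0.0108) and in the averaged effect (-0.30, edgeR adjusted p = 0.017). Combination replicate 1 stood at 2.40 CPM for RIGI, far under replicates 2 and 3 at 6.62 and 7.26 CPM. The causes were not tested. Counting error limits PSMB9, UBE2L6 and the members under 1 CPM.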
